A study of Drosophila melanogaster with 8 samples.

Results

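The enzymes described here are 9 proteins of sugar storage and breakdown in the fly: the glycogen enzymes Glyp and Glys, the glycolytic enzymes Pgi, Pfk, Tpi, Pgk, Pglym78 and Eno, and Gpdh1, which leads from glycolysis to glycerol-3-phosphate. They were chosen by gene symbol, and each of the 9 names was found among the 11982 genes that had a probe set with a single symbol in the platform annotation. The 9 genes had 12 probe sets. Gpdh1 had 4 and each of the others had 1, and its brightest probe set by mean signal stood for the gene. No member was lost to a filter on low values, since all probe sets were tested.

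Expression was measured in hearts of adult female flies (Drosophila melanogaster) on 8 Affymetrix arrays, with 2 arrays in each of 4 groups. Control hearts came from the cross of GMH5 to yw and FOXO hearts from the cross of GMH5 to FOXO, each at 1 week and at 5 weeks of age. GMH5, a Gal4 driver line used to switch on transgenes in the fly heart, is thus carried by all 4 groups, and yw is a laboratory strain with yellow body and white eyes. FOXO is the transcription factor that insulin signalling holds in check, and the labels name the transgene by that word alone. Per the labels, the heart tubes were dissected free, pericardial and fat cells were sucked away, and the cDNA made from the RNA was amplified and then labelled with biotin. How many hearts went into each array is not stated there. The series title asks how FOXO in the heart bears on its decline with age.

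Glycogen is the store from which muscle draws glucose units. Glycogen phosphorylase takes these units off as glucose-1-phosphate, and glycogen synthase adds them. Glycolysis then turns the sugar phosphate into pyruvate and yields ATP, and insulin signalling is a known regulator of glycogen storage in flies and mammals. In bulk hearts, fewer cells of a type and less RNA per cell cannot be told apart.

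Several arrays stood apart or went against their label. The 5 female-specific markers, which were the yolk protein genes Yp1, Yp2 and Yp3 of fat body and the oenocyte genes Fad2 and eloF, had a median log2 signal of 6.75 and 6.59 on the control 1 week arrays and of 6.18 on FOXO 1 week replicate 2, against 13.03 to 13.44 on the other 5 arrays, although all are labelled female. The median of 12 late spermatogenesis markers was 9.06 to 9.07 on the young control arrays, 10.04 to 10.28 on the old FOXO arrays and 4.67 to 6.30 on the other 4. The oocyte transcript osk stood at 12.41 on FOXO 1 week replicate 1 and at 4.91 or less elsewhere. Of the other measured oocyte and nurse cell markers, vas stood at 7.84 on that array and at 4.63 or less elsewhere. The last, bcd, did not set it apart, with 7.47 there, 7.43 on FOXO 1 week replicate 2 and 6.84 to 7.20 on the rest. Between the FOXO 1 week replicates 11.9% of probe sets had a log2 difference over 1, against at most 0.495% in the other groups. The foxo transcript lay between 10.22 and 10.87 on all arrays and did not pass the test between the crosses at 1 week (log2 fold change -0.05 ± 0.17, adjusted p = 0.913 by limma) or at 5 weeks (-0.15 ± 0.17, adjusted p = 0.653). Whether transgene transcripts bind this probe set is unknown here. Of the 12 heart and muscle markers listed 8 were measured, and among them Hand, a transcription factor of heart cells, lay between 13.04 and 13.33, while mid lay between 6.90 and 8.69 and pnr between 6.56 and 7.37. The fat body markers kept medians of 12.28 to 12.84 on all 8 arrays. Within that list Lsp2 lay between 7.62 and 10.46 and Fbp2 between 4.68 and 6.30. Whether the bright signals of the list came from fat body was not tested.

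All values below are log2 signal or differences of it, errors of a log2 fold change are standard errors, and errors of a group mean are SDs of 2 arrays. A transcript is said to have risen or fallen where the two-sided moderated test of limma gave a Benjamini-Hochberg adjusted p under 0.05 over 18769 probe sets. Nothing in the labels says that replicates were separate sets of flies. The p-values rest on the gaps between the 2 arrays of each group, pooled over the 4 groups and moderated by limma over all probe sets. These gaps may thus be technical, and so small a number of arrays limits the precision.

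The 9 transcripts were among the brighter ones on the arrays. Their probe sets lay between the 84.2nd percentile (Pglym78) and the 98.7th percentile (Eno) of all probe sets by mean signal. For 7 of 9 members the highest group mean was that of control hearts at 1 week, and for the other two, Gpdh1 and Pglym78, it was that of FOXO hearts at 1 week. The lowest mean was in control hearts at 5 weeks for 6 members and in FOXO hearts at 5 weeks for the other 3, Glyp, Glys and Pgi. Averaged over the members after each was centred on its own mean, the arrays stood at 0.26 and 0.26 in control 1 week, -0.16 and -0.16 in control 5 weeks, 0.02 and 0.17 on the FOXO 1 week arrays, and -0.24 and -0.15 on the FOXO 5 weeks arrays. The array means of the enzymes were thus above their own average on the 4 young arrays and below it on the 4 old ones.

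**Figure D1:**
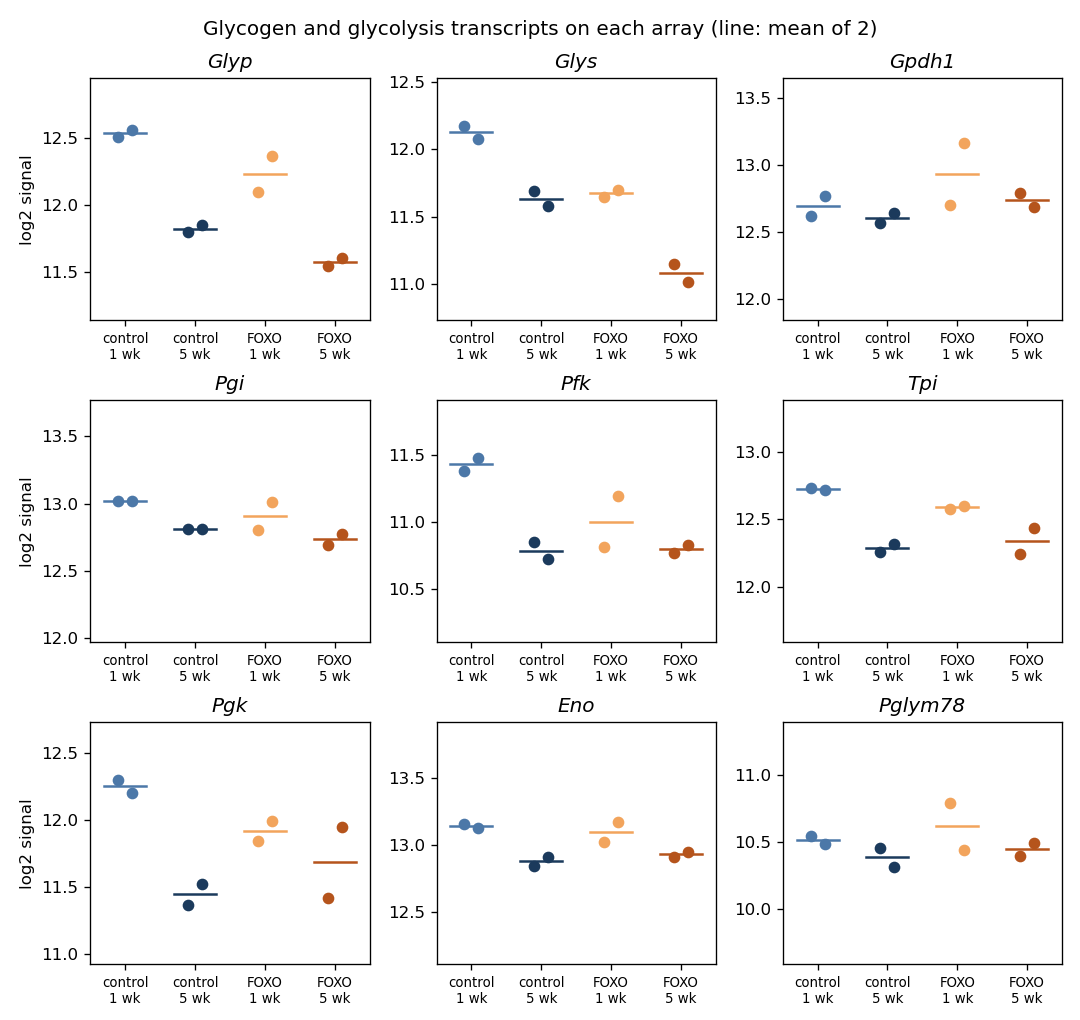
Log2 signal (y axis) of the 9 transcripts in 4 groups of cross and age (x axis). Points are arrays and lines are means of 2 arrays, and every panel spans the same height. Glyp and Glys are lowest in FOXO hearts at 5 weeks, with both arrays below all others, while Gpdh1 and Pglym78 overlap between neighbouring groups.

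Glyp, glycogen phosphorylase, releases glucose units from glycogen. Its signal was 12.51 and 12.56 in young (1 week) control hearts, 11.80 and 11.85 in old (5 weeks) control hearts, 12.09 and 12.36 in young FOXO hearts, and 11.55 and 11.60 in old FOXO hearts. No 2 groups overlapped, and they ran from young control through young FOXO and old control down to old FOXO.

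Glys, glycogen synthase, lengthens the glycogen chain. Its signal was 12.18 and 12.08 in young control, 11.69 and 11.58 in old control, 11.64 and 11.70 in young FOXO, and 11.15 and 11.01 in old FOXO. Young FOXO and old control hearts overlapped, all arrays of young control lay above them, and all arrays of old FOXO lay below them.

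Pgi converts glucose-6-phosphate to fructose-6-phosphate, and Pfk adds the phosphate that commits the sugar to glycolysis. Pfk stood at 11.38 and 11.47 in young control, 10.85 and 10.72 in old control, 10.81 and 11.20 in young FOXO, and 10.77 and 10.83 in old FOXO. The young control arrays were above all 6 others, and the other 3 groups overlapped with their neighbours. Pgi varied little: its group means spanned 0.28, from 13.02 ± 0.00144 in young control to 12.73 ± 0.06 in old FOXO.

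Tpi interconverts the triose phosphates, and Gpdh1, the cytosolic glycerol-3-phosphate dehydrogenase, draws on the same pool while it restores NAD+. Tpi stood at 12.73 and 12.72 in young control, 12.26 and 12.31 in old control, 12.58 and 12.60 in young FOXO, and 12.24 and 12.44 in old FOXO. All 4 young arrays lay above the 4 old ones. Gpdh1 stood at 12.62 and 12.77 in young control, 12.57 and 12.64 in old control, 12.70 and 13.16 in young FOXO, and 12.80 and 12.69 in old FOXO, and every pair of neighbours in the order of its means overlapped.

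Pgk carries out the earlier of the ATP-forming steps of glycolysis. Its signal was 12.30 and 12.20 in young control, 11.37 and 11.52 in old control, 11.84 and 11.99 in young FOXO, and 11.42 and 11.95 in old FOXO. The old FOXO arrays differed by 0.53, the widest gap between replicates of any member, so that group overlapped both young FOXO and old control. Pglym78, phosphoglycerate mutase, lay between 10.32 and 10.79 on all arrays, and Eno, enolase, between 12.85 and 13.17. The group means of Pglym78 spanned 0.23, less than the gap between its FOXO 1 week replicates at 10.79 and 10.44, and those of Eno spanned 0.26.

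Control hearts at 5 weeks were set against those at 1 week to ask what differs with age in this cross. The 5 female-specific markers also differed, by a median of 6.78, and the 12 late spermatogenesis markers by a median of -3.34. Age and the levels of these markers cannot be told apart here, and their part in the enzymes' values was not tested. All 9 members had a lower mean at 5 weeks, and for 8 of them, all but Gpdh1, both old arrays lay below both young ones. Such a separation downward was seen at 26.0% of all probe sets. Past the test, 1 of 9 members fell, Glyp, where 4.57% of all probe sets fell. Glyp went from 12.53 ± 0.04 to 11.82 ± 0.04, a log2 fold change of -0.71 ± 0.14 (adjusted p = 0.0315), or 0.612 times the young level. Pgk had a difference of -0.80 ± 0.20 (adjusted p = 0.0647), Pfk of -0.64 ± 0.17 (0.076), Glys of -0.49 ± 0.13 (0.0906) and Tpi of -0.44 ± 0.13 (0.127). The 95% intervals of these 4 lay below 0 before adjustment, the one for Pgk from -1.27 to -0.33. Values for Eno (-0.26), Pgi (-0.21), Pglym78 (-0.13) and Gpdh1 (-0.09) were smaller, and their intervals included 0. The median log2 fold change of the 9 members was -0.44, against 0.05 for all probe sets.

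The calls in ageing control hearts depended on the FOXO arrays that share the estimate of the spread. Without both FOXO 1 week arrays, or from the 4 control arrays alone, Glyp, Glys, Pfk, Tpi and Pgk fell, 5 of 9, where 17.5% and 19.3% of all probe sets passed in either direction, while the Glyp call was lost when 1 control array was left out, whichever it was (adjusted p from 0.163 to 0.224). It was also lost without either FOXO 5 weeks array (adjusted p = 0.0693), where Pgk passed in its place. With arrays centred on their medians Glyp had a value of -0.55 (adjusted p = 0.0748), and 7 of 9 members were below 0.

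**Figure D2:**
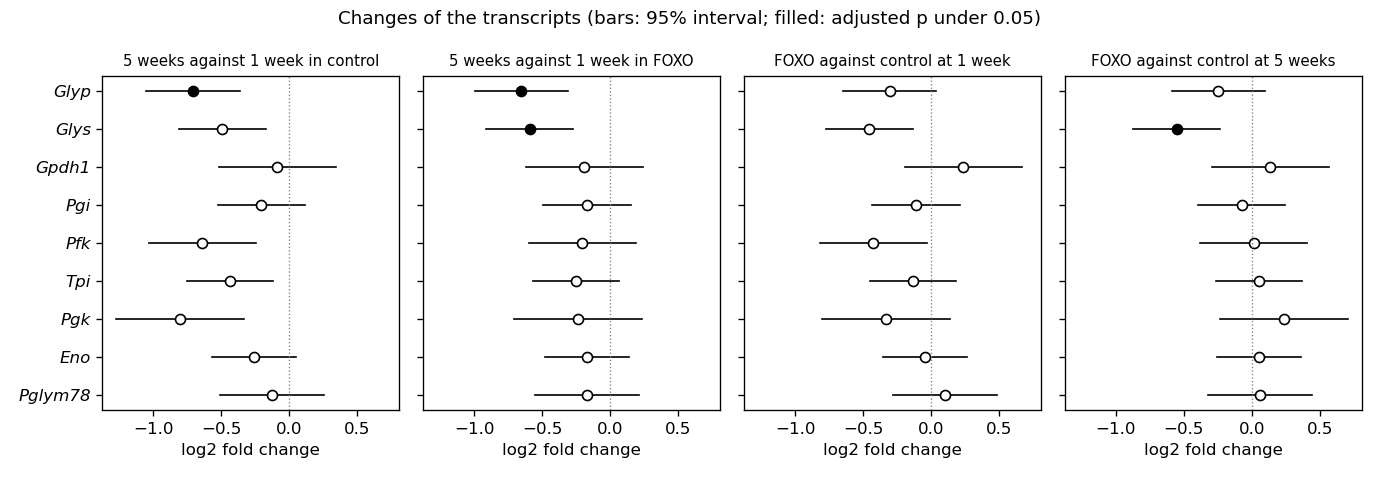
Log2 fold change (x axis) of each member (y axis) in 4 comparisons. Bars are 95% intervals from limma and filled points have an adjusted p under 0.05. All 9 points lie below 0 in both ageing comparisons (7 of 9 in control with centred array medians), where Glyp is filled in both, and Glys is filled in ageing FOXO hearts and in FOXO against control at 5 weeks.

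Ageing in FOXO hearts gave the same sign for all 9 members, and 2 of 9 fell, Glyp and Glys, where 5.82% of all probe sets fell. The mean of Glyp was 12.23 ± 0.19 in young and 11.58 ± 0.04 in old hearts (log2 fold change -0.65 ± 0.14, adjusted p = 0.0253), or 0.636 times the young level. That of Glys was 11.67 ± 0.04 and 11.08 ± 0.09 (-0.59 ± 0.13, adjusted p = 0.0282), or 0.664 times. The other 7 had values from -0.25 (Tpi) to -0.17 (Eno), with adjusted p from 0.238 to 0.486. Both old arrays lay below both young ones for 5 members, Glyp, Glys, Pgi, Tpi and Eno, a separation seen at 37.8% of all probe sets. The median of the members was -0.20 and that of all probe sets -0.15.

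Without FOXO 1 week replicate 1 or 2, a lone array stood for young FOXO hearts. The gap between these replicates then left the shared estimate of the spread. Such fits cannot show whether the calls hold against that gap, so only effect sizes are given. With replicate 1 as the only young array the value was -0.52 for Glyp and -0.56 for Glys. On these 3 arrays the female-specific markers were uniformly high, but other markers differed. The oocyte transcript osk stood at 12.41 on the young array and at 4.56 and 4.59 on the old ones. The late spermatogenesis median was 4.95 on the young array and 10.28 and 10.04 on the old ones. The part of these differences in the values was not tested. With replicate 2 alone, whose female-specific markers were low, the value was -0.79 for Glyp and -0.62 for Glys. From the 4 FOXO arrays alone neither passed (adjusted p = 0.162 and 0.164), nor with arrayWeights (0.107 and 0.161) or without any 1 of the other 6 arrays (largest 0.125 for Glyp and 0.142 for Glys). With centred array medians, which moved the median of all probe sets from -0.15 to -0.49, 8 of 9 members fell, where 50.2% of all probe sets passed in either direction, and the members' median was then -0.54.

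Averaged over both crosses, 2 of 9 members fell from 1 to 5 weeks, where 3.87% of all probe sets fell. Glyp fell by 0.68 ± 0.10 (adjusted p = 0.00764) and Glys by 0.54 ± 0.10 (adjusted p = 0.0137). The Glyp call was kept in all 16 alternatives run, with adjusted p from 0.00112 to 0.0491, and that of Glys was lost in 5, each of which left out 1 array (largest adjusted p = 0.0807). Pgk (-0.52, adjusted p = 0.0615), Tpi (-0.34, 0.0642) and Pfk (-0.42, 0.0666) did not pass, but did without FOXO 1 week replicate 1 or 2 (22.9% and 31% of all probe sets passed) or with centred medians (12.5%). The median over the members was -0.34, against -0.05 over all probe sets. The 5 female-specific markers differed by a median of 5.13 in the same comparison. They were low on both control 1 week arrays and on FOXO 1 week replicate 2, and no alternative left out all of these arrays. The part of this difference in the enzymes' values was not tested.

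The heart and muscle markers also had lower medians in old than in young hearts of each cross. In ageing control hearts 2 of the 8, Hand and pnr, had higher means. For FOXO against control at 5 weeks the median of the list was -0.24, where that of the members was 0.05. The array medians of these markers were 11.67 to 11.79 in young control, 11.07 to 11.10 in old control, 11.23 to 11.55 in young FOXO and 10.77 to 10.89 in old FOXO. The log2 of their summed signal was 15.21 to 15.29, 14.99 to 15.05, 15.05 to 15.13 and 14.79 to 14.87 in the same order, while tin, Mef2, Mhc and Act57B were not analysed here. Averaged over crosses, 4 of the 8 fell with age, where 3.87% of all probe sets fell. They were sls, the titin-like protein of the sarcomere (-1.01 ± 0.15, adjusted p = 0.00816), the heart transcription factors mid (-0.95 ± 0.16, 0.0125) and H15 (-0.75 ± 0.17, 0.0324), and up, which is troponin T (-0.37 ± 0.09, 0.0409). Hand had a value of 0.10 ± 0.10 (0.589), and Mlc2 and Tm2, a myosin light chain and a tropomyosin, had -0.31 and -0.23 (0.0827 and 0.165). In ageing control hearts the 5 female-specific markers also differed by a median of 6.78, and the log2 of their summed signal was 9.88 to 10.03 on the young and 15.43 to 15.45 on the old arrays. In that comparison age and the level of these markers cannot be told apart, and the average over crosses includes it. Fat body medians on those arrays were 12.82 to 12.84 in young and 12.54 in old hearts, with 2 of 6 markers risen. In each cross 3 of 5 gut markers rose with age. Of 18769 probe sets, 440 rose with age in control and 1769 in FOXO hearts. The part of the muscle and other markers in the enzymes' values was not tested.

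**Figure D3:**
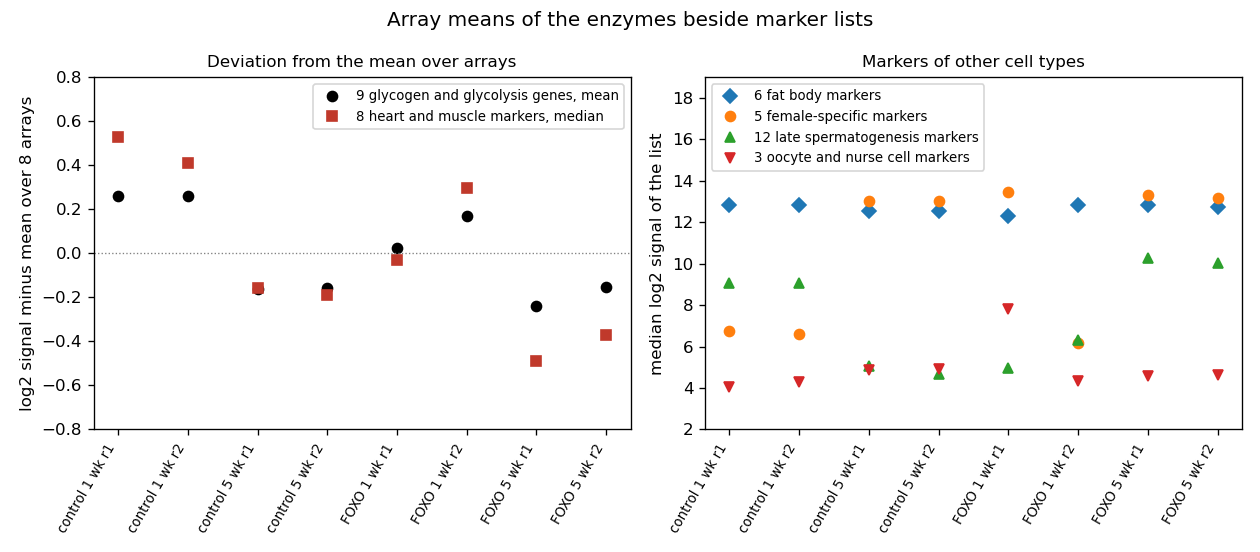
Marker lists on each of the 8 arrays (x axis). The left panel shows the mean of the 9 enzymes and the median of 8 heart and muscle markers as log2 signal minus the mean over arrays, and the right panel shows the median log2 signal of 4 other lists. The enzymes and the muscle markers are highest on the control 1 week arrays, the muscle markers are lowest on the FOXO 5 weeks arrays, and the enzymes of FOXO 5 weeks replicate 2 (-0.15) lie beside those of control 5 weeks (-0.16). The female-specific list is low on 3 arrays, and fat body runs from 12.28 to 12.84.

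FOXO was set against control at 1 week to ask what it changes in young hearts. No member passed, 0 of 9 by limma, where 3.87% of all probe sets fell. At an unadjusted p under 0.05 there were 2 of 9 members and 2937 of 18769 probe sets. Those 2 were Glys (-0.45 ± 0.13, adjusted p = 0.157) and Pfk (-0.42 ± 0.17, adjusted p = 0.285). Pgk had -0.33 ± 0.20 (0.466), Glyp -0.30 ± 0.14 (0.373) and Gpdh1 0.24 ± 0.18 (0.572). Both FOXO arrays lay below both control arrays for 6 members, Glyp, Glys, Pgi, Pfk, Tpi and Pgk, a separation seen at 20.5% of all probe sets. The median was -0.14 over the members and 0.04 over all probe sets, and with centred array medians it was 0.0013 and 0.18, with 4 of 9 members below 0 in place of 7. Without FOXO 1 week replicate 2 the median of the members was -0.21, and without replicate 1 it was -0.12. The first fit left the array with high oocyte transcripts and a female-specific median of 13.44, against 6.75 and 6.59 on the young control arrays. The second left the array where that median was 6.18. With all arrays the late spermatogenesis markers differed by a median of -3.02. The part of these markers in the enzymes' values at 1 week was not tested.

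At 5 weeks 1 of 9 members fell in FOXO hearts, Glys, where 3.07% of all probe sets fell. It went from 11.63 ± 0.08 in control to 11.08 ± 0.09 in FOXO (log2 fold change -0.55 ± 0.13, adjusted p = 0.0461), or 0.682 times the control level. Both FOXO arrays lay below both controls for Glyp, Glys and Pgi (45.1% of all probe sets) and above them for Gpdh1 and Eno (17.3%). Glyp had a value of -0.25 ± 0.14 (adjusted p = 0.348), and Pgk, with its divided replicates, 0.24 ± 0.20 (0.525). The remaining members lay between -0.08 (Pgi) and 0.13 (Gpdh1). The median was 0.05 over the members and -0.16 over all probe sets.

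The Glys call at 5 weeks was close to the threshold. It was lost without the dimmest 40% of probe sets (adjusted p = 0.0581), with a replicate block (0.0598) and without any 1 of the 6 arrays of the control groups and FOXO 5 weeks (0.109 to 0.235), and it was kept without either or both FOXO 1 week arrays (0.0171). Centred medians moved the median of all probe sets from -0.16 to -0.52 and put all 9 members below 0, with Glyp, Glys and Pgi past the test where 51.0% of all probe sets passed. The sign of the other 6 members at 5 weeks therefore depended on the scaling. All arrays compared at 5 weeks had high female-specific markers, while the late spermatogenesis markers differed by a median of 5.25. Of 5 gut markers 4 fell in FOXO hearts at 5 weeks, where 3.07% of all probe sets fell. The gut markers had a median of -0.79, and the log2 of their summed signal was 9.45 to 9.70 in control and 8.54 to 8.88 in FOXO hearts. Of 6 fat body markers 2 fell, Lsp2 (-2.72) and Fbp2 (-0.98), while the median of the list was 0.05 and the log2 of its sum was 15.07 to 15.15 in control and 15.13 to 15.23 in FOXO hearts. All 8 heart and muscle markers were below 0 in this comparison, from -0.60 to -0.07 with a median of -0.24, and none passed. The part of these markers in the Glys value was not tested.

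Averaged over both ages, Glys was the 1 member of 9 that fell in FOXO hearts, by 0.50 ± 0.10 (adjusted p = 0.0246), where 1.79% of all probe sets fell and 4.43% rose. It was lower in all 4 pairings of a FOXO array with a control array at each age. The call was lost with arrayWeights (adjusted p = 0.0500487) and without any 1 of the 6 arrays outside FOXO 1 week (0.0715 to 0.137), and without FOXO 1 week replicate 2 Glyp fell too, where 27% of all probe sets passed. Glyp had a value of -0.28 ± 0.10 (adjusted p = 0.231) with all arrays. The other members lay between -0.21 (Pfk) and 0.19 (Gpdh1), and the median of the 9 was -0.05 beside -0.04 for all probe sets. The heart and muscle markers had a median of -0.20 here, with all 8 below 0, none past the test by limma and 4 at an unadjusted p under 0.05. The female-specific markers had a median of 1.53, the late spermatogenesis markers 0.94 and the gut markers -0.51. What these lists contribute to the averaged Glys value was not tested.

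A difference of differences asked whether age altered the FOXO effect. No member passed, 0 of 9 by limma and 0 at an unadjusted p under 0.05, where 9.41% of all probe sets passed in either direction and 4276 of 18769 had such an unadjusted p. For Glys the difference was -0.10 ± 0.19, with a 95% interval from -0.55 to 0.35, and for Glyp it was 0.05 ± 0.20, from -0.43 to 0.54. The widest values were 0.57 ± 0.28 for Pgk (adjusted p = 0.282, interval from -0.10 to 1.24) and 0.44 ± 0.23 for Pfk (0.317, from -0.12 to 0.99). Pfk passed upward without FOXO 1 week replicate 2, where 29.5% of all probe sets passed, and Glys passed downward with centred array medians, where 47.9% did.

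The 4 probe sets of Gpdh1 did not give a single picture. The brightest had values of 0.24 at 1 week and 0.13 at 5 weeks for FOXO against control. The third by brightness had 0.22 ± 0.13 (adjusted p = 0.466) and 0.49 ± 0.13 (adjusted p = 0.0707), where the means were 11.29 ± 0.04 for old control and 11.78 ± 0.05 for old FOXO hearts. The dimmest had 0.26 at both ages, with old FOXO arrays at 11.82 and 11.23, and the second by brightness had -0.22 and 0.12. None of the 4 passed in the 7 comparisons made with all arrays.

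Of 38 other genes listed for the pathway 29 were measured, among them Mgat1, which acts in protein glycosylation rather than in glycogen turnover. With age in control hearts 4 of 29 fell, where 4.57% of all probe sets fell, and none rose. With age in FOXO hearts 7 rose, where 9.43% of all probe sets rose, and none fell. For FOXO against control, 4 of 29 fell at 1 week, where 3.87% of all probe sets fell. At 5 weeks 6 rose, where 7.35% of all probe sets rose. The 4 genes that fell in ageing control hearts also made up the falls at 1 week. They were Hex-t2, a hexokinase copy, Pglym87, a copy of the mutase gene Pglym78, Gpdh3, a copy of Gpdh1, and Gpo3, a copy of the mitochondrial glycerol-3-phosphate oxidase. The medians over the 29 genes were -0.25 for age in control, 0.11 for age in FOXO, -0.23 for FOXO at 1 week and 0.03 at 5 weeks, against 0.05, -0.15, 0.04 and -0.16 over all probe sets.

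The copies and the members they resemble had different values on the same arrays. Pglym87 stood at 7.17 and 7.64 in young control, 5.10 and 4.76 in old control, 4.53 and 4.94 in young FOXO, and 6.86 and 6.66 in old FOXO. It was high on the 4 arrays with high late spermatogenesis markers and low on the other 4. Of those 12 markers 11 fell in FOXO hearts at 1 week and 11 with age in control, and 12 rose in FOXO hearts at 5 weeks and 12 with age in FOXO hearts. The log2 of their summed signal was 12.88 to 12.94 in young control, 8.94 to 9.09 in old control, 9.15 to 10.16 in young FOXO and 13.96 to 14.06 in old FOXO hearts, and their part in the values of the copies was not tested. The FOXO effect on Pglym87 differed between ages by 4.50 (adjusted p = 0.000102), while Pglym78 had -0.04 ± 0.23 in that test (0.921). Gpdh2 rose in old FOXO hearts against control by 3.24, from 4.36 ± 0.52 to 7.59 ± 0.15, and Gpdh3 by 1.09, from 6.77 ± 0.14 to 7.86 ± 0.14, where the Gpdh1 value was 0.13. Gpo3 rose there by 3.73 and Hex-t2 by 3.55. Gpo2, a further copy of the glycerol-3-phosphate oxidase, rose with age in FOXO hearts by 1.82 (adjusted p = 0.0153) and had -1.67 for FOXO at 1 week (0.0538). Its FOXO 1 week arrays stood at 6.52 and 7.76, and the other 6 at 8.80 or more. In the difference of the FOXO effect between ages 6 of the 29 genes passed, all upward, where 7.28% of all probe sets passed upward: Hex-t2, Pglym87, Gpo3, Gpdh2, Gpdh3 and Pepck2.

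Apart from Pepck2, the genes named next had smaller values than Hex-t2, Pglym87 and Gpo3 in each comparison of single groups. Gyg, glycogenin, which primes the glycogen particle, fell with age averaged over crosses by 0.42 (adjusted p = 0.0451), where the value was -0.44 for control (adjusted p = 0.155) and -0.39 for FOXO hearts (0.117). UGP, which makes the UDP-glucose that glycogen synthase uses, rose with age by 0.48 (adjusted p = 0.0281) and fell in FOXO hearts by 0.56 (adjusted p = 0.0227) in the averaged comparisons. It stood at 10.20 and 10.24 in young control, 10.82 and 10.63 in old control, 9.65 and 9.72 in young FOXO, and 10.26 and 10.04 in old FOXO. Like Glys it had a lower mean in FOXO hearts at each age (-0.53 with adjusted p = 0.124, and -0.58 with adjusted p = 0.0524), and unlike Glys a higher one in old hearts. AGBE, the branching enzyme, had -0.95 with age in control (adjusted p = 0.139) and lay at 10.91 and 11.78 on the FOXO 1 week replicates. Among glycolytic genes, Gapdh1 had -0.32 with age in both crosses (0.272 and 0.161) and Hex-A, a hexokinase, -0.27 and -0.22. The brighter hexokinase Hex-C had -0.82 with age in control (adjusted p = 0.361 by limma). It lay at 11.57 and 12.97 on the FOXO 1 week replicates. The gluconeogenic gene Pepck2 rose in ageing FOXO hearts by 2.07 (adjusted p = 0.00046) and stood at 12.59 and 12.61 in old FOXO, against 11.46 or less elsewhere. Averaged over crosses, 3 of the 29 genes rose with age, UGP, Gpdh2 and Pepck2, where 7.67% of all probe sets rose.

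**Figure D4:**
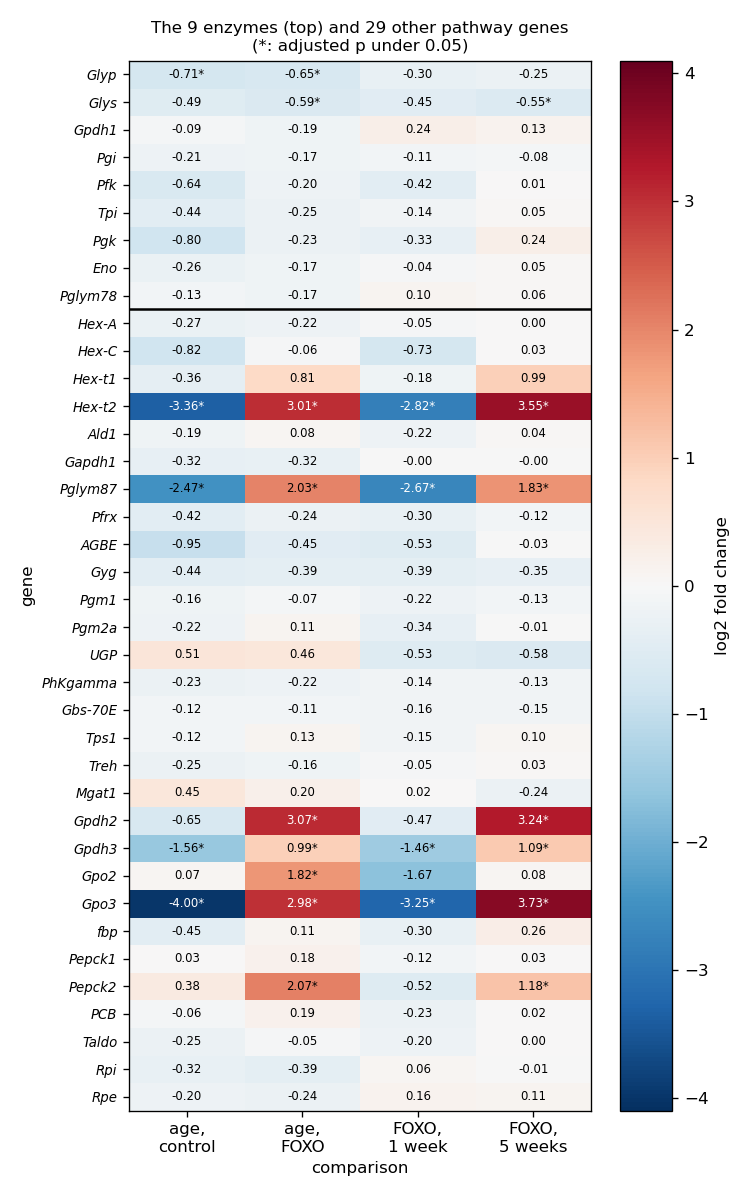
Log2 fold change (colour and printed value) of the 9 members, above the line, and of 29 other pathway genes in 4 comparisons (x axis). A star marks an adjusted p under 0.05 by limma. The values beyond 1 in size lie in Hex-t2, Pglym87, Gpdh2, Gpdh3, Gpo2, Gpo3 and Pepck2, while the members stay within -0.80 to 0.24.

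For likeness, each gene was centred on its own mean and compared over the 8 arrays by the root mean square difference of log2 signal, among 11973 genes that were no members. Nearest to the mean profile of the 9 members were CG7849 (0.050), CG7430 (0.052) and COX7AL2 (0.056), where the profile itself had a root mean square of 0.192. Nearest to Glyp were babos (0.084), CG5177 (0.085) and tex (0.088), against 0.375 for Glyp itself. Nearest to Glys were cwo (0.090), a repressor of the circadian clock, Spn28Dc (0.112), a serpin, and Asph (0.116), against 0.374 for Glys.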

How the data were processed

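The authors deposited 1 log2 value per probe set and array, a unit inferred from their range (2.14 to 14.1) and from array means of 6.86 to 6.90. How probes were summarised and normalized is unknown here, and limma is named in the submitters' processing notes. Of 18952 probe sets, 183 array controls were left out. The 8 arrays were grouped by the labels' titles.

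In R 4.3.3 with limma 3.58.1, lmFit and eBayes were run on all 18769 remaining probe sets with 1 mean per group (4 residual degrees of freedom), and 7 contrasts were tested two-sided with Benjamini-Hochberg adjustment. The fits were tested on simulated data. Alternatives were quantile normalization, centred array medians, a filter on the dimmest 40%, eBayes with trend and robust, arrayWeights, a replicate block, the mean of a gene's probe sets, an adjusted p under 0.1, fewer groups and each array left out.

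The members and lists were chosen with earlier results of these data known. All members were described. Pathway genes past the test, at most 4 per list and comparison by smallest p, and the 3 genes nearest to each profile were named by rule. Genes named beyond it, such as Gpo2, were chosen after their values were seen. Synonyms of the current reference table were used where a listed name had no probe set of that symbol.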

Additional observations from a re-analysis of the deposited data

How the results depend on the processing

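The counts of members past the test changed as follows, each with the share of all probe sets that passed in either direction, and the cause was not tested. Centred array medians gave 3 of 9 (51%) for FOXO at 5 weeks, 0 (8.21%) for age in control, 8 (50.2%) for age in FOXO, 1 (47.9%) for the difference between ages and 5 (12.5%) for age over both crosses. Leaving out dim probe sets gave 0 for FOXO at 5 weeks (10.2%), as did the replicate block (10.1%). Trend and robust eBayes gave 3 (7.19%) for age in control and 4 (12.2%) over both crosses, and an adjusted p under 0.1 gave 4 (9.49%) and 5 (17.3%). With arrayWeights age in control gave 5 (19.6%), age in FOXO 0 (9.35%) and FOXO over both ages 0 (6.38%). The arrays of the compared groups alone gave 5 (19.3%) and 0 (7.57%) for age in control and in FOXO, and leaving out both FOXO 1 week arrays gave 5 (17.5%) for age in control. With each array left out in turn the counts ranged from 0 to 2 for FOXO at 1 week, 0 to 1 at 5 weeks, 0 to 5 for age in control, 0 to 2 for age in FOXO, 0 to 1 for the difference, 0 to 2 for FOXO over both ages and 1 to 5 for age over both crosses. A lone array was assumed to vary like the other groups. No called value of Glyp or Glys changed sign.

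The replicate block changed no count but that at 5 weeks, where Glys had -0.55 (adjusted p = 0.0598). Same-numbered arrays of control 5 weeks and FOXO 5 weeks deviated together with a correlation across probe sets of 0.33. The other pairs of groups had 0.01 to 0.11. The labels state no pairing, so the numbers were not taken to pair the arrays. The block fits a common replicate effect over all groups, so it cannot show whether arrays were paired at 5 weeks alone. A difference of 1 between replicates at 11.9% of probe sets in FOXO 1 week limits what the shared spread can resolve.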

Other observations

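Markers of other cell types were measured on the same arrays. Among the fat body markers Lsp2, a storage protein of the fat body, stood at 10.43 and 10.46 in old control hearts and between 7.62 and 8.33 on the other 6 arrays. AkhR, the receptor of the hormone that mobilises glycogen and fat, stood at 12.42 and 12.36 in young control, 11.91 and 11.92 in old control, 11.46 and 12.27 in young FOXO, and 12.39 and 12.25 in old FOXO. Pericardial nephrocyte markers were present on all arrays, Amnionless between 12.95 and 13.31 and Cubn between 12.33 and 12.67. Over the arrays the list medians ran from 9.64 to 11.35 for hemocytes, 7.03 to 8.02 for neurons, 5.69 to 7.05 for gut and 3.83 to 5.71 for male accessory gland.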
